A study of Bos taurus with 138 samples.

Results

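The messenger RNAs of 9 bovine genes that set or remove cytosine methylation were followed from the oocyte to the blastocyst, in whole-cell transcriptomes and across sucrose gradients. The genes were picked by name, as the rows of the deposited count table for DNMT1, DNMT3A, DNMT3B, UHRF1, UHRF2, TET1, TET2, TET3 and TDG. All 9 are present among the 16706 gene symbols of that table, and all 9 passed the filter on low counts. The study covered immature Bos taurus oocytes with a germinal vesicle (GV), oocytes in metaphase II (MII) and in vitro produced embryos of the 2-cell, 8-cell, morula and blastocyst stages. At each of the 6 stages, lysates of pooled oocytes or embryos were spun through 2 gradients (A and B) and cut into 10 fractions (F1 to F10), and 3 transcriptomes (A, B and C) were sequenced, giving 138 libraries. The letters label replicates, which the study calls biological, and transcriptomes and gradients of a stage came from the same batches without a statement of which belong together, so p-values measure only the spread between these samples. The oocytes came from follicles of slaughterhouse ovaries and were matured in vitro to MII, and the embryos came from in vitro fertilisation with semen of a single Holstein bull, so that no stage represents in vivo development. Cycloheximide, which holds ribosomes on the RNA, was added to the culture before oocytes and embryos were collected. The lysis buffer and the gradients contained it as well. According to the study's description of the gradient, F1 and F2 held mainly free RNA, F3 to F5 monosomes and F8 to F10 polysomes.

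DNA methylation is maintained at replication by DNMT1, which copies the mark onto the new strand, and by UHRF1, which recognises hemimethylated CpG sites and brings DNMT1 to them. DNMT3A and DNMT3B place methylation on unmethylated DNA, whereas the TET dioxygenases oxidise 5-methylcytosine and TDG, a thymine DNA glycosylase, excises its further oxidised forms. In mammals, much of the methylation inherited from the gametes is lost during cleavage and is laid down again around implantation, and in cattle the embryonic genome becomes broadly active at about the 8-cell stage.

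The transcriptome level of a gene was its CPM, a count scaled to the total of the library, in a whole-cell library, and the polysome level was the CPM of the summed counts of F8 to F10 of 1 gradient, here called a polysome pool. Both are shares of a library and not numbers of molecules, and in pooled embryos fewer cells of a type and less RNA per cell cannot be told apart. The counts were not divided by transcript length, so levels are compared between samples and not between genes. Adjusted p-values are from edgeR's quasi-likelihood test over 14612 genes with the Benjamini-Hochberg method, at a threshold of 0.05, and log2 fold changes are given ± SE (n = 3 transcriptomes and n = 2 polysome pools per stage). UHRF1 shares its locus with ARRDC5, and DNMT3A with LOC112448893, in the RefSeq annotation. Counting by strand was not stated, so part of the reads of these 2 genes could belong to the neighbour, which was not tested. ARRDC5 itself was counted at no more than 0.794 CPM in any transcriptome and at 0 in every polysome pool.

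Library totals ranged from 1229382 to 17342859 counts in the fractions and from 3269386 to 11812567 in the transcriptomes, and the 12 polysome pools held 22543743 to 39380629 counts. The stage labels were reflected in marker genes: 12 oocyte markers summed to between 16733 and 29433 CPM in the GV, MII and 2-cell transcriptomes and to between 585 and 1197 CPM at the 8-cell stage. In blastocyst transcriptome A they summed to 870.5 CPM, against 51.7 and 83.9 CPM in B and C, and in morula polysome pool B to 660 CPM, against 119 CPM in pool A. The part of that RNA in the blastocyst and morula results was not tested. The 11 blastocyst lineage markers in the table summed to between 5497 and 6016 CPM in blastocyst transcriptomes and to between 591 and 922 CPM in morula transcriptomes. In polysome pools they summed to 3812 and 5969 CPM in the morula and to 14382 and 10368 CPM in the blastocyst. Not every marker was highest in the blastocyst. NANOG had transcriptome means of 208 CPM at 8-cell and 28.9 CPM in the blastocyst, and CDX2 of 8.16 CPM at 2-cell and 6.98 CPM in the blastocyst. The 8-cell libraries stood apart in 13 mesenchymal markers, which summed to 18243, 3258 and 3168 CPM in the 8-cell transcriptomes and to 1586 and 1914 CPM in the polysome pools. They summed to between 13.6 and 473 CPM in all other transcriptomes and to between 23.99 and 801 CPM in all other pools, and none of the 13 was at 0 in every 8-cell library. Whether that RNA contributed to the changes into and out of the 8-cell stage was not tested. The change from the 2-cell stage to the morula was also computed without any 8-cell library. It spans both steps, so it does not show what changed at the 8-cell stage itself.

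Over the 5 transitions between consecutive stages, the transcriptome level changed in 19 of the 45 tests on these genes, beside 24.6% of the tests on all genes. The polysome level changed in 12 of 45, beside 22.5%. The polysome level stood apart from the transcriptome level of the same stage in 32 of 54 tests, beside 49.9% of the tests on all genes, with 17 higher and 15 lower beside 26.1% and 23.8%. By stage, 5, 6, 7, 5, 6 and 3 of the 9 genes were called at GV, MII, 2-cell, 8-cell, morula and blastocyst, beside 39.8%, 57.5%, 51%, 59.1%, 51.7% and 40.1% of all genes. The polysome and transcriptome changes of a transition differed in 12 of 45 interaction tests, beside 9.87%. No called direction reversed under another scaling of the libraries. The broadest shift was from the 2-cell to the 8-cell stage, where 7 of the 9 genes changed in the transcriptome: DNMT1, DNMT3B, UHRF1, UHRF2 and TET3 fell, whereas TET1 and TDG rose. This was also the transition at which most other genes moved, 52.3% of all genes being called, 27.7% higher and 24.6% lower.

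**Figure D1:**
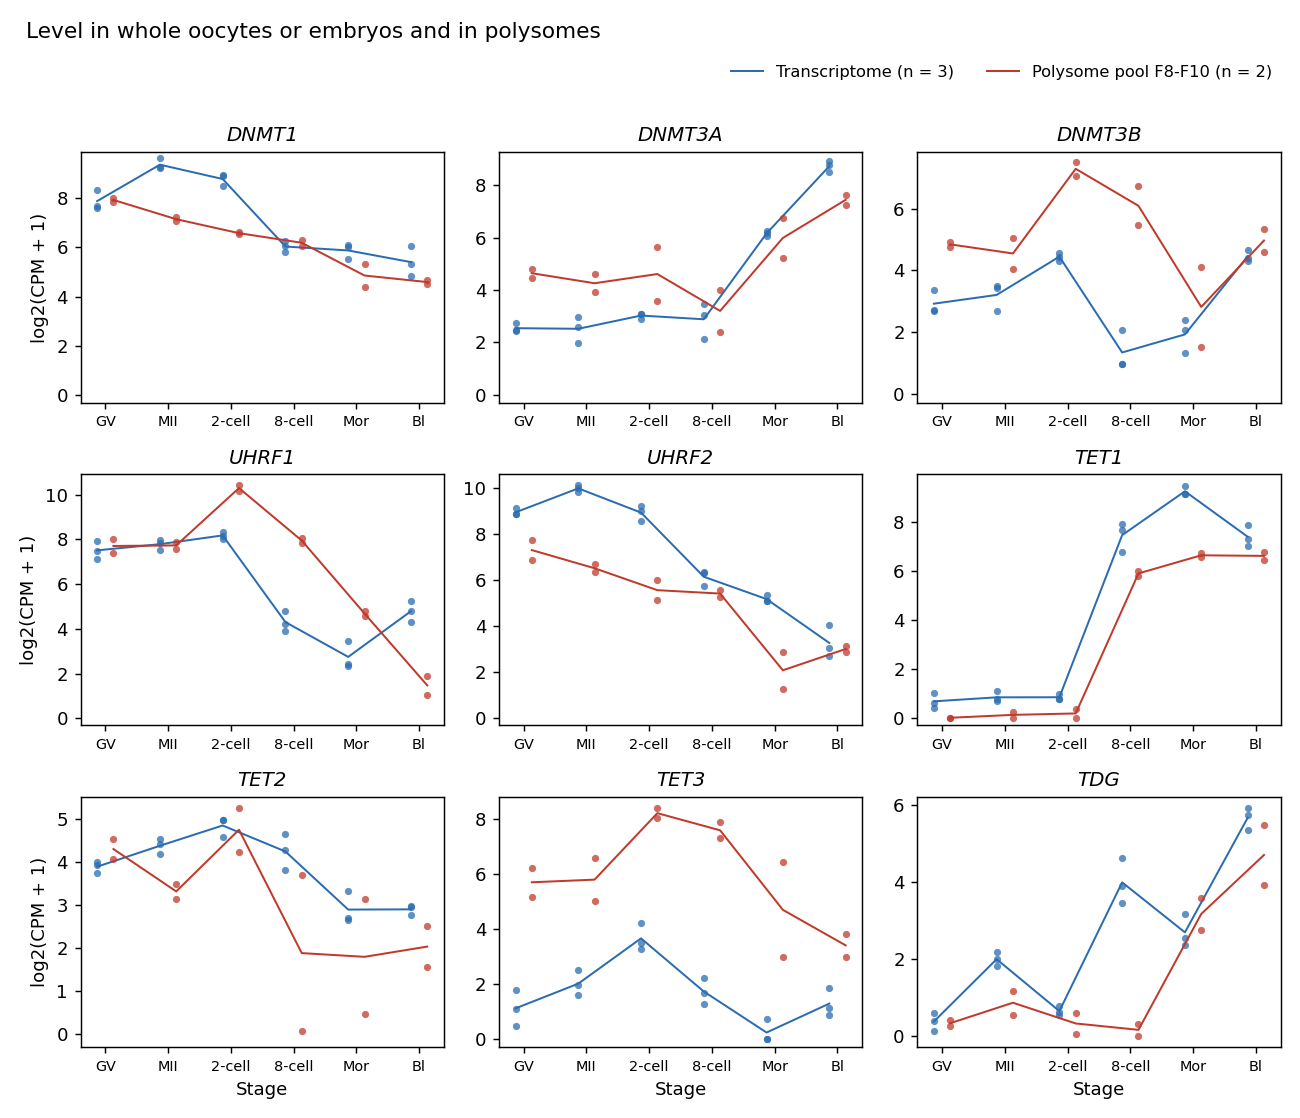
Levels of the 9 genes by stage, as log2(CPM + 1) on the vertical axis, for the 3 whole-cell transcriptomes (blue points) and the 2 polysome pools of F8 to F10 (red points). Lines join the means of each kind, and Mor and Bl stand for morula and blastocyst. DNMT1 and UHRF2 start high and decline, TET1 appears at the 8-cell stage, and DNMT3A is highest in the blastocyst.

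DNMT1, the maintenance methyltransferase, was at its highest in the MII oocyte and declined across genome activation. Its transcriptome levels were 205, 317 and 194 CPM at GV and 588, 599.6 and 772 CPM at MII. The 2-cell embryos had 471, 484 and 356 CPM, the 8-cell embryos 75.6, 54.4 and 64.5 CPM, the morulae 63.5, 66.6 and 44.7 CPM and the blastocysts 65.0, 27.6 and 38.6 CPM. The MII, 2-cell and GV ranges were separate from each other and from all later stages, while the ranges of 8-cell, morula and blastocyst overlapped. The rise at maturation was 2.74-fold (log2 1.45 ± 0.29, adjusted p = 0.000829). It was 1 of 2 calls among the 9 genes at that step, beside 18.6% of all genes, where DESeq2 and the edgeR likelihood ratio test each called 3. The decline from the 2-cell to the 8-cell stage was 6.74-fold (log2 -2.75 ± 0.31, adjusted p = 1.05e-07).

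The polysome level of DNMT1 followed another course. The pools held 227 and 254 CPM at GV, 131 and 148 at MII, 91.2 and 96.8 at 2-cell, 78.0 and 65.5 at 8-cell, 19.9 and 39.0 in the morula and 24.6 and 21.6 in the blastocyst, a descent in which only the last pair of stages overlapped. At maturation the 2 measures thus moved apart, and the polysome change was lower than the transcriptome change in a test of the difference (-2.24 ± 0.46 on the log2 scale, adjusted p = 0.00221). This interaction test called 2 of the 9 genes at maturation, beside 10.6% of all genes. At the 2-cell to 8-cell transition the difference had the opposite sign (2.36 ± 0.46, adjusted p = 0.00196), since the polysome level changed by only -0.39 ± 0.35 (adjusted p = 0.384). Both differences kept their calls whichever library was left out.

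Set against the whole-cell transcriptome, DNMT1 was 4.67-fold lower in MII polysomes (log2 -2.22 ± 0.35, adjusted p = 9.38e-06) and 4.65-fold lower in 2-cell polysomes (-2.22 ± 0.35, adjusted p = 1.29e-05), and it did not differ detectably at GV (0.01 ± 0.32) or at the 8-cell stage (0.15 ± 0.32). In the morula and blastocyst the gene was lower by log2 differences of -0.98 ± 0.33 and -0.92 ± 0.34 (adjusted p = 0.0171 and 0.0328). All 20 fraction libraries of MII and all 20 of the 2-cell stage lay below every transcriptome of their stage, so that the deficit was not particular to polysomes. The morula and blastocyst calls were narrow. The morula call was lost without polysome pool A (-0.60) or transcriptome B (-0.87), and the blastocyst call without polysome pool A (-1.03), pool B (-0.83) or transcriptome A (-0.52), the library with 870.5 CPM of oocyte markers, and also without a filter on low counts (-0.82) or with F7 added to the pools (-0.67). The 8-cell to morula decline in polysomes (-1.28 ± 0.36, adjusted p = 0.00778) was likewise lost without morula pool A (-0.87) and with the polysome pools alone (-1.25).

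UHRF1, the reader of hemimethylated DNA, was the gene with the widest polysome swing among the maintenance factors. Its transcriptome levels were 245, 137 and 179 CPM at GV, 229, 251 and 185 at MII, 261, 284 and 326 at 2-cell, 17.4, 14.0 and 27.1 at 8-cell, 9.99, 4.11 and 4.42 in the morula and 37.3, 19.1 and 26.6 in the blastocyst. The 2-cell embryo ranked first and the morula last, both separate from their neighbours. UHRF1 fell 14.9-fold from the 2-cell to the 8-cell stage (log2 -3.90 ± 0.39, adjusted p = 1.69e-08) and a further 3.15-fold to the morula (-1.66 ± 0.37, adjusted p = 0.0030). It then rose 4.46-fold to the blastocyst (2.16 ± 0.37, adjusted p = 0.000155), 1 of 6 members called at that step beside 23.2% of all genes, and by 1.89 on the log2 scale without blastocyst transcriptome A (adjusted p = 0.00147).

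In the polysome pools UHRF1 stood at 258 and 168 CPM at GV and at 192 and 234 CPM at MII, and then at 1138 and 1389.5 CPM in the 2-cell embryo. The 8-cell pools held 264 and 229.9 CPM, the morula pools 27.1 and 22.7 CPM and the blastocyst pools 2.74 and 1.06 CPM. The 2-cell pools lay above every other pool. The rise from MII to 2-cell was 5.93-fold (log2 2.57 ± 0.45, adjusted p = 0.000885), where 2 of the 9 genes were called beside 8.65% of all genes, and the transcriptome level changed by 0.39 ± 0.35 (adjusted p = 0.573). A fit of the 12 polysome pools alone gave 2.52 for this rise and ended its call (adjusted p = 0.0794). The difference between the measures at that step passed the threshold (2.18 ± 0.55, adjusted p = 0.0414), the only one of the 9 to do so, beside 1.81% of all genes. It was lost when any of 12 single libraries was left out, with estimates of 2.02 to 2.34 over all libraries left out in turn, and also without TMM factors (2.00) or without a filter on low counts (1.98).

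After the 2-cell stage the UHRF1 polysome level fell at each step, by 5.12-fold to the 8-cell stage (log2 -2.36 ± 0.44, adjusted p = 0.000161), 9.92-fold to the morula (-3.31 ± 0.46, adjusted p = 1.16e-05) and 13.1-fold to the blastocyst (-3.71 ± 0.48, adjusted p = 4.21e-05). It was the only member called at the last step, where 14.2% of all genes were. From morula to blastocyst the transcriptome and polysome levels therefore went in opposite directions, and the difference between the changes was -5.86 ± 0.61 (adjusted p = 7.70e-06). With libraries left out in turn, the polysome change ranged from -4.54 (without blastocyst pool A) to -3.16. The difference ranged from -6.70 (without blastocyst pool A) to -5.32, and it was -5.60 without blastocyst transcriptome A.

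UHRF1 was accordingly higher in polysomes than in the transcriptome at the 2-cell (4.35-fold, log2 2.12 ± 0.38, adjusted p = 6.34e-05), 8-cell (12.7-fold, 3.66 ± 0.40, adjusted p = 6.30e-08) and morula stages (4.03-fold, 2.01 ± 0.39, adjusted p = 0.000184). In the blastocyst it was 14.5-fold lower (-3.85 ± 0.47, adjusted p = 8.28e-07). That estimate ranged from -4.70 (without blastocyst pool A) to -3.33 with libraries left out in turn, and it was -3.58 without blastocyst transcriptome A. At GV and MII the polysome and transcriptome ranges overlapped. The excess was not particular to the polysome fractions: all 20 fraction libraries of the 2-cell stage and all 20 of the 8-cell stage exceeded every transcriptome of their stage, and 17 of 20 lay below every transcriptome in the blastocyst.

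UHRF2, a paralogue of UHRF1, was at its highest in the oocyte and was lower in polysomes than in the transcriptome at 4 of the 6 stages. Transcriptome levels were 556, 468 and 464 CPM at GV, 901, 1029 and 1145 at MII, 510.5, 607 and 382 at 2-cell, 79.8, 52.6 and 82.1 at 8-cell, 33.1, 39.6 and 33.5 in the morula and 5.59, 15.8 and 7.20 in the blastocyst. The polysome pools held 117 and 213 CPM at GV, 80.5 and 103 at MII, 62.6 and 34.4 at 2-cell, 37.7 and 46.4 at 8-cell, 1.45 and 6.36 in the morula and 7.74 and 6.43 in the blastocyst. Up to the morula, every polysome pool lay below every transcriptome of its stage. In the transcriptome the MII range was above all others, GV and 2-cell overlapped, and each later stage was separate from the one before.

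UHRF2 fell 6.99-fold in the transcriptome from the 2-cell to the 8-cell stage (log2 -2.80 ± 0.41, adjusted p = 4.39e-06) and 3.69-fold from morula to blastocyst (-1.88 ± 0.41, adjusted p = 0.00153). In polysomes it fell 10.6-fold from the 8-cell stage to the morula (-3.41 ± 0.52, adjusted p = 2.97e-05), where the estimate was -2.72 without morula pool A and -4.83 without pool B. The 2 measures thus declined at different transitions. The differences between their changes were 2.60 ± 0.61 at 2-cell to 8-cell (adjusted p = 0.00749), -2.40 ± 0.62 at 8-cell to morula (adjusted p = 0.0126) and 2.72 ± 0.64 at morula to blastocyst (adjusted p = 0.00759). The first was lost without 2-cell pool B (2.24) and the second without morula pool A (-1.71, against -3.83 without pool B), while the third was 2.05 without morula pool A and 4.17 without pool B. At maturation the difference of -1.90 ± 0.61 passed narrowly (adjusted p = 0.0454) and was lost when any of 16 single libraries was left out, without TMM factors (-1.85) and with the replicate block (-1.86).

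Against the transcriptome, UHRF2 was lower in polysomes at GV (3.01-fold, log2 -1.59 ± 0.45, adjusted p = 0.00668), MII (11.2-fold, -3.48 ± 0.50, adjusted p = 2.15e-06), 2-cell (10.3-fold, -3.36 ± 0.49, adjusted p = 4.37e-06) and morula (8.95-fold, -3.16 ± 0.49, adjusted p = 1.29e-05). The 8-cell value of -0.77 ± 0.44 and the blastocyst value of -0.44 ± 0.45 did not pass (adjusted p = 0.133 and 0.459), and both blastocyst pools lay within the range of the transcriptomes. The GV call was lost without pool A (-1.22), and the morula estimate was -2.50 without pool A and -4.62 without pool B. At GV, MII and 2-cell all 20 fraction libraries, free RNA and monosomes included, were below every transcriptome of the stage.

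DNMT3A, a de novo methyltransferase, belonged to the later embryo. Its transcriptome levels were low and overlapping from GV (5.62, 4.51 and 4.46 CPM) through MII (6.87, 5.07 and 2.97) and 2-cell (7.53, 7.59 and 6.39) to 8-cell (10.03, 3.41 and 7.31). They were 70.5, 74.7 and 66.7 CPM in the morula and 359, 483 and 434 CPM in the blastocyst, each range separate from all others. DNMT3A rose 10.2-fold from the 8-cell stage to the morula (log2 3.35 ± 0.53, adjusted p = 0.000137), 1 of 4 members called there beside 15.4% of all genes, and 6.03-fold from morula to blastocyst (2.59 ± 0.51, adjusted p = 0.000596). Without the 8-cell libraries, the rise from the 2-cell stage to the morula was 3.28 ± 0.44.

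The DNMT3A polysome pools were less even. They held 27.3 and 21.1 CPM at GV, 14.1 and 23.3 at MII, 10.98 and 48.9 at 2-cell, 15.2 and 4.26 at 8-cell, 36.5 and 106 in the morula and 197 and 152 in the blastocyst. The blastocyst alone was separate from every other stage, and pools A and B of the 2-cell, 8-cell and morula stages stood well apart. The rise from the 8-cell stage to the morula was 7.37-fold (log2 2.88 ± 0.63, adjusted p = 0.00127), with estimates of 4.07 and 2.23 without 8-cell pool A or B and of 3.47 and 1.94 without morula pool A or B, and its call was lost in a fit of the polysome pools alone (2.89, adjusted p = 0.0724). It was 1 of 6 members called at that step, beside 37% of all genes. The decline from the 2-cell to the 8-cell stage (-1.63 ± 0.61, adjusted p = 0.0310) rested on 2-cell pool B, without which it was -0.18. It was also lost without 8-cell pool B (-0.98), when F7 was added to the pools (-1.30) and with the polysome pools alone (-1.55), and it was -2.33 without 2-cell pool A and -2.81 without 8-cell pool A.

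Before genome activation DNMT3A was higher in polysomes than in the transcriptome, 4.96-fold at GV (log2 2.31 ± 0.55, adjusted p = 0.00162), 3.76-fold at MII (1.91 ± 0.55, adjusted p = 0.00488) and 4.17-fold at 2-cell (2.06 ± 0.54, adjusted p = 0.00282). The MII call was lost without MII pool B (1.47) and the 2-cell call without 2-cell pool B (0.61, against 2.76 without pool A). The excess was not particular to polysomes: 17, 15 and 17 of the 20 fraction libraries at GV, MII and 2-cell lay above every transcriptome, and the mean of the monosome fractions was 20.6, 23.0 and 25.7 CPM against 22.6, 15.1 and 27.0 CPM in F8 to F10. No difference between the measures passed the threshold at the 8-cell stage or later. In the blastocyst, however, both pools lay below every transcriptome, with means of 174 CPM and 426 CPM. All 20 blastocyst fraction libraries also lay below every blastocyst transcriptome.

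DNMT3B, the other de novo enzyme, had a polysome level well above its transcriptome level at the cleavage stages. Transcriptomes held 9.26, 5.54 and 5.47 CPM at GV, 10.3, 9.73 and 5.47 at MII, 20.9, 19.0 and 22.8 at 2-cell, 0.943, 3.23 and 0.957 at 8-cell, 3.17, 4.202 and 1.51 in the morula and 18.8, 24.3 and 20.4 in the blastocyst. The polysome pools held 29.3 and 26.5 CPM at GV, 32.0 and 15.7 at MII, 135 and 183 at 2-cell, 106 and 43.3 at 8-cell, 1.83 and 16.5 in the morula and 39.6 and 23.3 in the blastocyst. The 2-cell and 8-cell pools were above all others, whereas in the transcriptome the 2-cell and blastocyst stages overlapped at the top and the morula and 8-cell stages at the bottom.

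In the transcriptome DNMT3B fell 12.2-fold from the 2-cell to the 8-cell stage (log2 -3.61 ± 0.65, adjusted p = 7.07e-05, and -4.45 without 8-cell transcriptome B) and rose 7.11-fold from morula to blastocyst (2.83 ± 0.63, adjusted p = 0.00174). In polysomes it rose 6.66-fold from MII to 2-cell (2.74 ± 0.74, adjusted p = 0.0222), a call lost without MII pool B (2.30), 2-cell pool A (2.93) or 2-cell pool B (2.50) and with the polysome pools alone (2.70), while the estimate was 3.35 without MII pool A. It fell 8.08-fold in polysomes from the 8-cell stage to the morula (-3.01 ± 0.75, adjusted p = 0.00350), with estimates of -5.31 without morula pool B, -2.16 without morula pool A and -2.23 without 8-cell pool A. Its call was lost in a fit of the polysome pools alone (-3.04, adjusted p = 0.0709). At 8-cell to morula the difference between the changes was -3.81 ± 0.96 (adjusted p = 0.0109). It kept its call at -6.12 without morula pool B, -2.96 without morula pool A, -3.04 without 8-cell pool A and -4.65 without 8-cell transcriptome B.

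The largest gap between the measures for DNMT3B was at the 8-cell stage, where polysomes were 43.5-fold above the transcriptome (log2 5.44 ± 0.72, adjusted p = 1.03e-06). That estimate was 4.66 without 8-cell pool A and 6.28 without 8-cell transcriptome B. At the 2-cell stage the gap was 7.60-fold (2.93 ± 0.65, adjusted p = 0.000586) and at GV 4.11-fold (2.04 ± 0.64, adjusted p = 0.0135), the latter lost without GV pool A (1.97), transcriptome B (1.92) or transcriptome C (1.91). All 20 fraction libraries at GV and at the 8-cell stage, and 19 of 20 at 2-cell, exceeded every transcriptome of their stage. The MII call (1.49 ± 0.64, adjusted p = 0.0490) was lost in 22 of 30 refits with 1 library left out, down to 0.83 without MII pool A, and under 4 other settings (1.31 to 1.48). The morula call (1.63 ± 0.65, adjusted p = 0.0388) changed sign without morula pool B (-0.71, against 2.45 without pool A) and was also lost without morula transcriptome A (1.68) or C (1.29) and under 4 other settings (1.32 to 1.48).

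**Figure D2:**
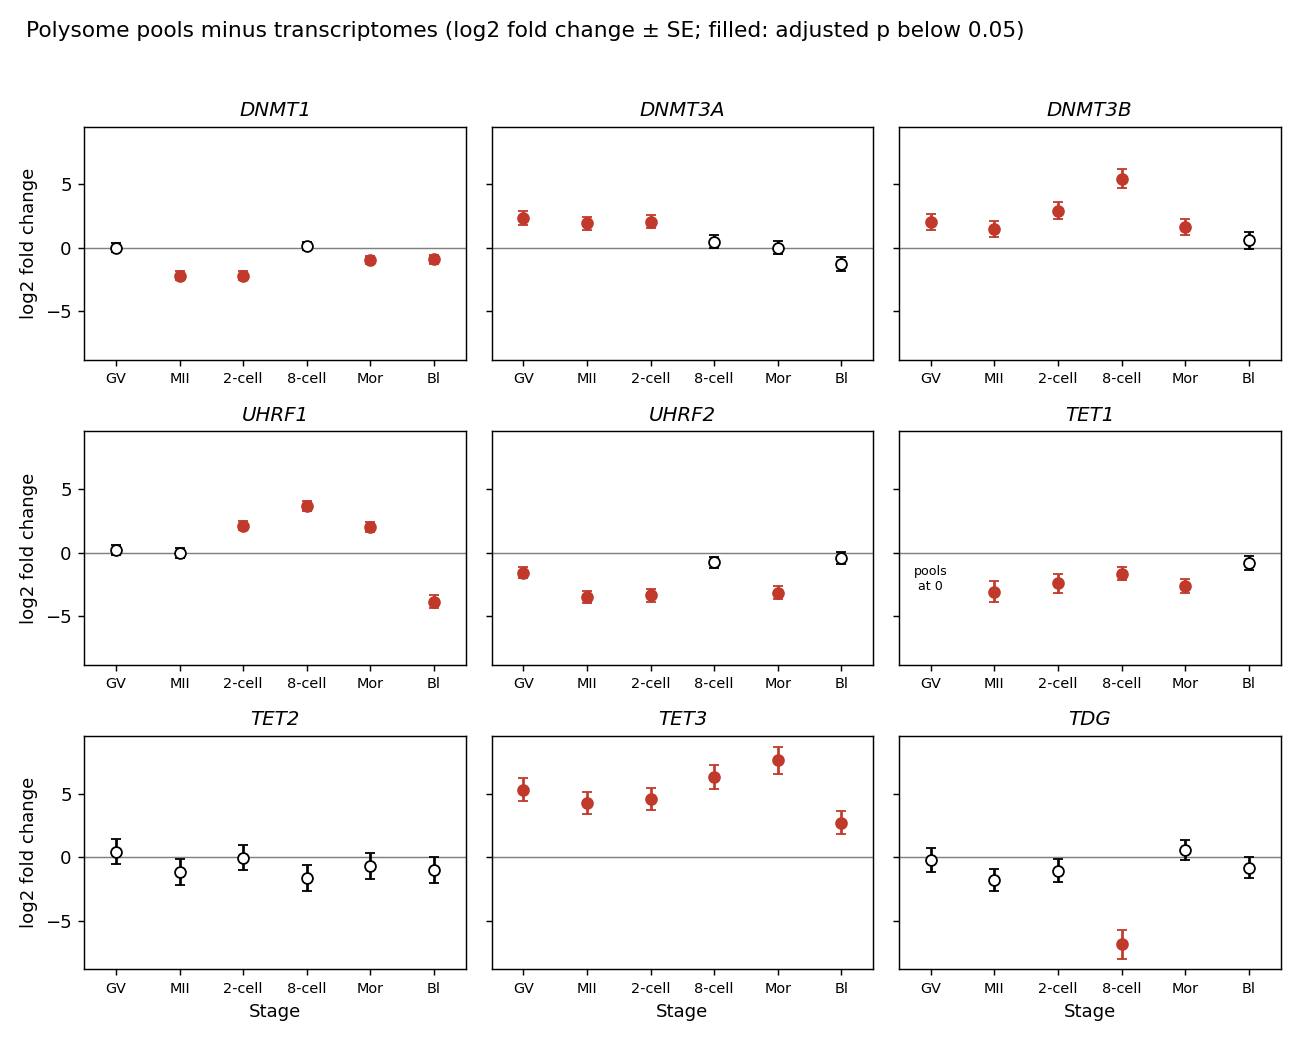
Polysome pools against whole-cell transcriptomes at each stage, as log2 fold change ± SE on the vertical axis (positive when higher in polysomes), for each of the 9 genes, with Mor and Bl for morula and blastocyst. Filled points passed the adjusted p threshold of 0.05, and the GV value of TET1 is left out because both pools were at 0. TET3 lies above the zero line at all 6 stages and UHRF2 below it (its 8-cell and blastocyst points did not pass), and UHRF1 crosses from above to below at the blastocyst.

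The TET dioxygenases had different time courses. TET1 was close to absent until genome activation. Its transcriptome levels were 0.531, 1.03 and 0.304 CPM at GV, 0.687, 1.12 and 0.595 at MII and 0.685, 0.719 and 0.978 at 2-cell. They were 109, 243 and 206 CPM at 8-cell, 568, 569.7 and 714 in the morula and 128, 237 and 157 in the blastocyst. The morula was highest and separate from the rest, the 8-cell and blastocyst ranges overlapped, and the first 3 stages overlapped each other.

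From the 2-cell to the 8-cell stage, TET1 rose 232-fold in the transcriptome (log2 7.86 ± 0.64, adjusted p = 1.17e-09). It rose a further 3.32-fold to the morula (1.73 ± 0.47, adjusted p = 0.0138) and then fell 3.54-fold to the blastocyst (-1.83 ± 0.47, adjusted p = 0.00636). The rise to the morula was lost without 8-cell transcriptome A (1.46) or morula transcriptome C (1.61). Measured directly from 2-cell to morula without the 8-cell libraries, the rise was 9.57 ± 0.64 on the log2 scale.

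The TET1 polysome pools were at 0 in both GV gradients, at 0 and 0.179 CPM at MII and at 0.278 and 0 CPM at 2-cell. They held 55.0 and 63.1 CPM at 8-cell, 105 and 93.1 in the morula and 86.8 and 109 in the blastocyst. A count of 0 allows up to 3 counts, on average 0.0907 CPM per GV pool, and against that floor the 8-cell polysome level was at least 651-fold higher, for counting error only. The rise from 2-cell to 8-cell polysomes was 393-fold (log2 8.62 ± 0.82, adjusted p = 3.85e-08, and 7.70 without 2-cell pool B). This step called 3 of the 9 genes, beside 47.3% of all genes. Every TET1 pool lay below every transcriptome of its stage. The polysome level was called lower by 8.43-fold at MII (-3.08 ± 0.85, adjusted p = 0.00364), 5.34-fold at 2-cell (-2.42 ± 0.74, adjusted p = 0.00907), 3.15-fold at 8-cell (-1.66 ± 0.54, adjusted p = 0.0121) and 6.22-fold in the morula (-2.64 ± 0.57, adjusted p = 0.000546). The MII and 2-cell values rest on pools with few reads, and without MII pool B or 2-cell pool A the remaining pool was at 0, which leaves those estimates without a fixed size. GV is also among the called stages, with both pools at 0. The MII value was -2.18 without MII pool A, the 2-cell call was lost without pool B (-1.50), and the 8-cell call without pool A (-1.56). At GV the transcriptome mean of 0.620 CPM was at least 6.84-fold above the floor of the empty pools.

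TET2 changed in none of the tests between consecutive stages or between polysomes and transcriptome. Its transcriptome levels were 14.96, 14.3 and 12.3 CPM at GV, 22.2, 20.2 and 17.0 at MII, 30.5, 30.5 and 22.7 at 2-cell, 23.9, 12.99 and 18.3 at 8-cell, 9.05, 5.27 and 5.49 in the morula and 6.76, 6.84 and 5.80 in the blastocyst. The polysome pools held 22.0 and 15.7 CPM at GV, 10.2 and 7.80 at MII, 17.8 and 37.0 at 2-cell, 11.9 and 0.0542 at 8-cell, 0.386 and 7.74 in the morula and 1.96 and 4.68 in the blastocyst. The 8-cell and morula pools of the 2 gradients were more than an order of magnitude apart. The 2-cell transcriptomes had the highest mean, in a range that overlapped that of the 8-cell stage, and the morula and blastocyst lay below all earlier stages. Over the longer interval from 2-cell to morula, without the 8-cell libraries, TET2 fell in the transcriptome (log2 -2.09 ± 0.60, adjusted p = 0.00502) and in polysomes (-2.70 ± 0.75, adjusted p = 0.00383).

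TET3 was scarce in whole-cell libraries and prominent in the gradients. Its transcriptome levels were 2.43, 0.410 and 1.11 CPM at GV, 2.86, 4.66 and 2.02 at MII, 10.3, 8.71 and 17.4 at 2-cell, 2.23, 1.43 and 3.65 at 8-cell, 0.653, 0 and 0 in the morula and 2.65, 0.829 and 1.2004 in the blastocyst. The polysome pools held 35.2 and 73.2 CPM at GV, 94.3 and 31.3 at MII, 333 and 259.8 at 2-cell, 155 and 235 at 8-cell, 6.84 and 84.6 in the morula and 6.92 and 13.2 in the blastocyst. At every stage both pools exceeded all 3 transcriptomes. Both measures ranked the 2-cell embryo first and separate from the next stage.

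Polysomes exceeded the transcriptome for TET3 by 40.0-fold at GV (log2 5.32 ± 0.91, adjusted p = 4.87e-05), 19.6-fold at MII (4.29 ± 0.86, adjusted p = 0.000179), 24.4-fold at 2-cell (4.61 ± 0.86, adjusted p = 9.19e-05) and 79.6-fold at 8-cell (6.32 ± 0.93, adjusted p = 4.57e-06). The GV estimate was 4.70 without GV pool B and 6.14 without GV transcriptome A, and the MII estimate 3.23 without MII pool A. TET3 counts were 32, 4 and 11 in the GV transcriptomes and 9, 4 and 6 in the blastocyst transcriptomes. The morula value of 7.64 ± 1.07 (adjusted p = 3.10e-06) was set against transcriptomes of which 2 of 3 were at 0, so that its size is loosely fixed, and it was 4.89 without morula pool B, 8.50 without pool A and 7.04 without transcriptome B. Without morula transcriptome A both remaining transcriptomes were at 0, so that no size can be given there for any morula estimate of TET3. The blastocyst value of 2.74 ± 0.91 (6.68-fold, adjusted p = 0.0189) was lost without blastocyst pool B (2.20), transcriptome B (2.40) or transcriptome C (2.57). This excess was again shared by the whole gradient: 20, 19, 20, 19, 17 and 15 of the 20 fraction libraries at GV, MII, 2-cell, 8-cell, morula and blastocyst lay above every transcriptome of their stage.

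In the transcriptome TET3 fell 4.97-fold from the 2-cell to the 8-cell stage (log2 -2.31 ± 0.78, adjusted p = 0.0157) and from the 8-cell stage to the morula (-3.41 ± 0.997, adjusted p = 0.0209). Both calls depended on single libraries of very few reads. The first was lost without 2-cell transcriptome C (-1.96), 8-cell transcriptome A (-2.25) or 8-cell transcriptome B (-2.04), and the second without 8-cell transcriptome C (-3.00), morula transcriptome B (-2.81) or morula transcriptome C (-2.89). From the 2-cell stage to the morula without the 8-cell libraries, TET3 fell in the transcriptome (-5.73 ± 1.01, adjusted p = 4.82e-05) and in polysomes (-2.66 ± 0.90, adjusted p = 0.0145). The difference between polysome and transcriptome change from morula to blastocyst was -4.90 ± 1.43 (adjusted p = 0.0266). It was -2.15 and not called without morula pool B, the pool that held 84.6 CPM where pool A held 6.84, and -5.76 without pool A. Its call was lost without any of 5 other libraries and with F7 added to the pools (-3.91) as well.

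TDG, the glycosylase that completes TET-driven demethylation, was low in the oocyte and was highest in the blastocyst. Transcriptome levels were 0.304, 0.513 and 0.101 CPM at GV, 2.98, 3.55 and 2.50 at MII, 0.456, 0.719 and 0.526 at 2-cell, 23.8, 9.95 and 13.8 at 8-cell, 8.03, 4.11 and 4.85 in the morula and 39.7, 59.7 and 52.6 in the blastocyst. The polysome pools held 0.328 and 0.189 CPM at GV, 0.468 and 1.25 at MII, 0.0278 and 0.523 at 2-cell, 0 and 0.244 at 8-cell, 5.73 and 11.04 in the morula and 14.1 and 43.9 in the blastocyst. Whole-cell TDG was thus higher at the 8-cell stage than at any earlier one, MII included, while its polysome pools there had the lowest mean of all stages, and the morula pools lay above all earlier pools. In the transcriptome only the GV and 2-cell ranges overlapped.

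TDG rose 27.7-fold in the transcriptome from the 2-cell to the 8-cell stage (log2 4.79 ± 0.87, adjusted p = 7.60e-05) and 8.94-fold from morula to blastocyst (3.16 ± 0.78, adjusted p = 0.00446). At maturation it rose 9.66-fold (3.27 ± 0.87, adjusted p = 0.00886), a call lost without GV transcriptome C (2.88). The rises from GV and from 2-cell start from few reads, with TDG counts of 4, 5 and 1 at GV and of 6, 9 and 7 at 2-cell. In polysomes TDG rose 60.6-fold from the 8-cell stage to the morula (5.92 ± 1.13, adjusted p = 0.000327, and 5.06 without 8-cell pool A). That rise rests on 8-cell pools of 0 and 9 counts, and its call was lost in a fit of the polysome pools alone (6.05, adjusted p = 0.0832). The 8-cell polysome level was 114.5-fold below the transcriptome level (-6.84 ± 1.15, adjusted p = 2.46e-05, and -5.98 without 8-cell pool A), and none of the 20 fraction libraries of the 8-cell stage reached the lowest of its transcriptomes.

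The polysome change of TDG differed from the transcriptome change by -5.80 ± 1.34 from the 2-cell to the 8-cell stage (adjusted p = 0.00664) and by 7.41 ± 1.33 from the 8-cell stage to the morula (adjusted p = 0.000763). The interaction test called 3 of the 9 genes at each of these steps, beside 12.2% and 12.5% of all genes, as it did from morula to blastocyst beside 12.3%. The first difference was lost without 2-cell pool B (-2.79) and was -6.71 without 2-cell pool A and -4.93 without 8-cell pool A, and the second was 6.55 without 8-cell pool A. Without 8-cell pool B the remaining pool was at 0, so that neither difference has a size there. When the 2-cell stage was compared with the morula without any 8-cell library, the difference was 1.72 ± 1.04 (adjusted p = 0.289), while TDG rose by 3.29 ± 0.70 in the transcriptome and by 5.01 ± 0.90 in polysomes. That span covers both steps, so it does not test either difference.

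**Figure D3:**
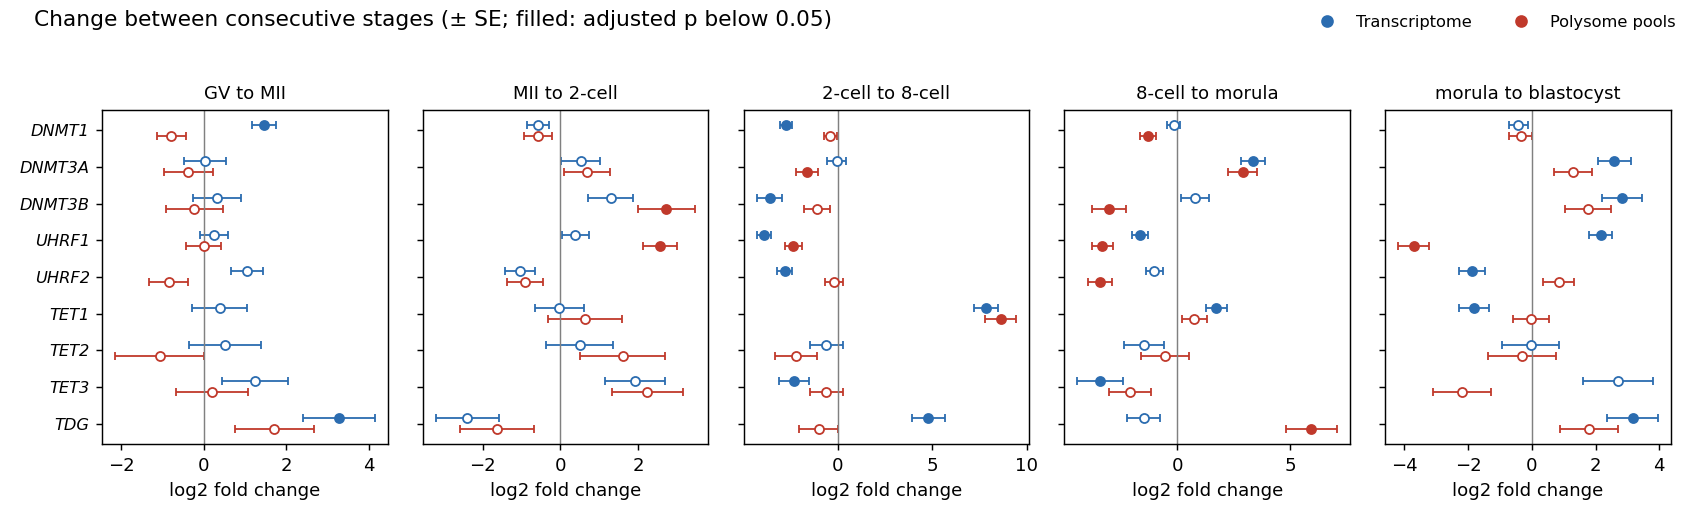
Change of the 9 genes (vertical axis) at each of the 5 transitions between consecutive stages (panels), as log2 fold change ± SE on the horizontal axes, for whole-cell transcriptomes (blue) and polysome pools (red). Filled points passed the adjusted p threshold of 0.05, and the GV to MII polysome value of TET1 is left out because both GV pools were at 0. DNMT1 and UHRF2 pass at 2-cell to 8-cell in the transcriptome and not in polysomes, and the UHRF1 points lie on opposite sides of zero at morula to blastocyst.

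Over all 9 genes, the transcriptome level changed at no gene from MII to 2-cell by this test, beside 13.1% of all genes, although 4 genes had an unadjusted p below 0.05 and DESeq2 and the edgeR likelihood ratio test each called 2. The polysome level changed at no gene from GV to MII, beside 5.43% of all genes. There 2 genes had an unadjusted p below 0.05, and DESeq2 and the likelihood ratio test each called 0. From 2-cell to morula without the 8-cell libraries, all 9 genes changed in the transcriptome, beside 62.4% of all genes, and all 9 in polysomes, beside 62.8%. DNMT3A, TET1 and TDG were higher in the morula and the other 6 genes lower, in both measures. Over all genes, 31.1% were called higher and 31.3% lower in the transcriptome, and 30.4% and 32.4% in polysomes. In that comparison the polysome and transcriptome changes differed for DNMT3A alone (-1.95 ± 0.65, adjusted p = 0.0461), beside 14.8% of all genes.

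The distribution of each RNA over the gradient was described from the 10 fractions of gradients A and B, in CPM of the fraction libraries. Because each fraction is scaled to its own library, a profile shows in which fractions a gene takes a larger share of the RNA and not where most molecules were. DNMT1 leaned toward the heavy end in oocytes. At GV its mean CPM was 32.6 in F3 and 254 in F9, and Spearman's rho between fraction number and CPM over F3 to F10 was 0.85 over the 16 libraries (0.74 and 0.90 in A and B). At MII rho was 0.89 and the peak was in F10 in both gradients, and from the 2-cell stage on rho lay between 0.30 and 0.36. The points of one gradient share a lysate, so these correlations are descriptions only.

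UHRF1 leaned toward the light end at the 8-cell stage, with rho of -0.95 (-0.95 and -0.98 in A and B). Its CPM was 939 and 1300 in F3, the peak of both gradients, and 278 and 125 in F10. At the 2-cell stage rho was 0.53, so that the profile sloped the other way there. At GV it was -0.59 (-0.17 and -0.90 in A and B). TET3 also leaned toward light fractions at GV (rho -0.53, with -0.52 and -0.43 in A and B) and after the 2-cell stage. At 8-cell it peaked in F5 in both gradients, at 704 and 1350 CPM, and held 2.97 and 75.9 CPM in F10 (rho -0.70). In the blastocyst it peaked in F6, at 118 and 187 CPM, and held 1.43 and 0 CPM in F10 (rho -0.76).

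TET1 had the reverse slope in the later embryo, with rho of 0.71 in the blastocyst and its peak in F8 of gradient A and F9 of gradient B. TET2 had a rho of 0.80 at GV and smaller values elsewhere. For DNMT3A the sign of rho differed between gradients A and B at GV, morula and blastocyst, for example 0.57 and -0.43 at GV. The same held for DNMT3B in the blastocyst, and at the 8-cell stage its rho was -0.19 in gradient A and -0.98 in gradient B. At GV the rho of DNMT3B was -0.59 (-0.29 and -0.83 in A and B).

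**Figure D4:**
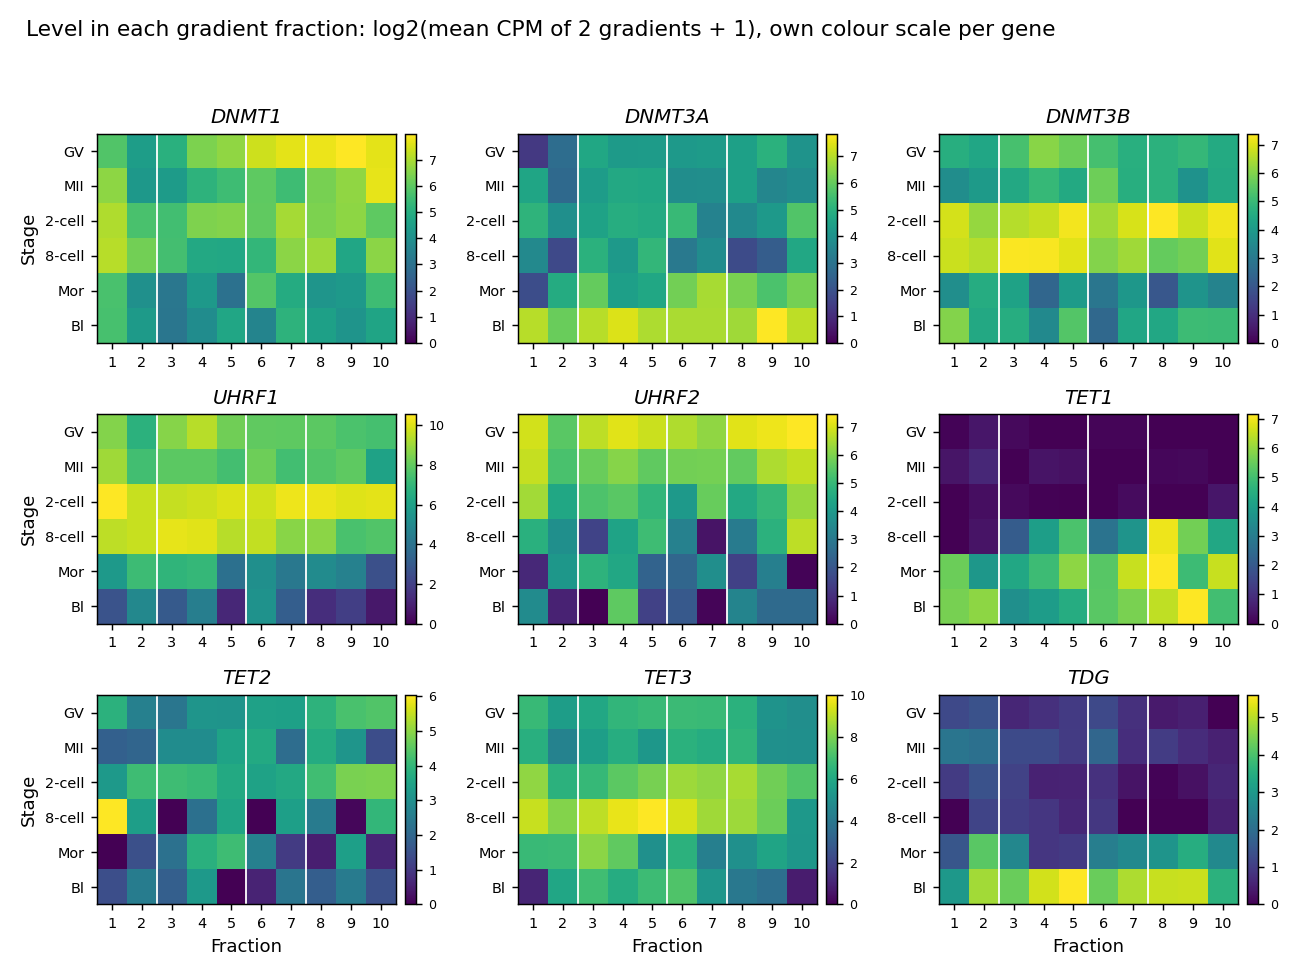
Mean CPM over gradients A and B in each of the fractions F1 to F10 (horizontal axis) at each stage (vertical axis), as log2(CPM + 1) with a colour scale of its own for each gene. Mor and Bl stand for morula and blastocyst, and white lines separate free RNA (F1 and F2), monosomes (F3 to F5), the intermediate fractions (F6 and F7) and polysomes (F8 to F10). DNMT1 brightens toward the heavy fractions in GV and MII oocytes, and UHRF1 and TET3 toward the light ones at the 8-cell stage.

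Heavy fractions (the summed counts of F8 to F10) were also tested against light ones (F3 to F5) within each stage, over 14873 genes. None of the 54 tests on the 9 genes passed, beside 2.22% of the tests on all genes; 10 had an unadjusted p below 0.05, DESeq2 called 8 and the edgeR likelihood ratio test 1. Light and heavy pools come from the same gradient, and with the gradient as a block TET3 passed at 3 stages. It was lower in heavy fractions at 8-cell (log2 -2.05 ± 0.51, adjusted p = 0.0365), in the morula (-2.60 ± 0.54, adjusted p = 0.0467) and in the blastocyst (-3.64 ± 0.55, adjusted p = 0.0158). The blocked fit called 8.74%, 1.41% and 1.31% of all genes at these stages.

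TET3 light pools held 506 and 999.9 CPM at 8-cell, 73.4 and 262 in the morula and 102 and 133 in the blastocyst. The heavy pools of the same gradients held 141 and 209, 6.91 and 74.3, and 6.69 and 12.98 CPM. Each heavy pool was below its own light pool, and at 8-cell and blastocyst the groups did not overlap. DNMT1 had the opposite order in oocytes, with light pools of 59.3 and 88.3 CPM and heavy pools of 209 and 234 CPM at GV, and 34.2 and 37.1 against 116 and 134 CPM at MII. These differences of 1.59 ± 0.51 and 1.81 ± 0.51 did not pass (adjusted p = 0.234 and 0.155).

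Genes that work with these enzymes were summarised at the 2-cell to 8-cell transition from lists chosen by function. The all-gene median log2 change there was 0.03 in the transcriptome and -0.26 in polysomes, beside medians of -2.31 and -1.01 for the 9 genes. Over all genes, 27.7% rose and 24.6% fell in the transcriptome at this step, and 47.3% changed in polysomes. Of 9 replication-coupled maintenance partners, 3 rose and 4 fell in the transcriptome (median 0.20), and 5 rose and 4 fell in polysomes (median 0.70). LIG1, the ligase that joins Okazaki fragments, went from a mean of 480 to 37.5 CPM in the transcriptome (log2 -3.68 ± 0.30, adjusted p = 6.82e-10), and PCLAF, a PCNA-associated factor, from 0.437 to 60.2 CPM (7.08 ± 0.80, adjusted p = 1.07e-07). Against the transcriptome, 5 or 6 of these 9 partners were lower in polysomes at each stage and 1 or 2 higher, with medians from -2.95 to -1.09, beside 23.8% lower and 26.1% higher of the tests on all genes over the 6 stages.

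Of 13 tested genes of the DNMT3 cofactor and the histone marks that guide it, 1 rose and 5 fell in the transcriptome (median -1.09), and 1 rose and 3 fell in polysomes (median -0.02). SETD2, which trimethylates histone H3 lysine 36 where transcription elongates, rose in both, from 5.03 to 87.4 CPM in the transcriptome (4.12 ± 0.79, adjusted p = 0.000151) and from 2.31 to 37.4 CPM in polysomes (4.01 ± 0.96, adjusted p = 0.0017). SUV39H2, a histone H3 lysine 9 methyltransferase, fell in both (-3.33 ± 0.65 and -4.12 ± 0.84, adjusted p = 0.000182 and 0.000363). Of 8 tested guards of methylation at imprints, 2 rose and 2 fell in the transcriptome and 4 rose and 3 fell in polysomes. Among them DPPA3, which shields the maternal genome from demethylation in the mouse zygote, went from 3929 to 872 CPM in the transcriptome (-2.17 ± 0.33, adjusted p = 7.58e-06), and the zinc finger protein ZFP57 rose (3.77 ± 1.35, adjusted p = 0.0222).

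Of 10 readers of methylated CpG, 3 rose and 3 fell in the transcriptome (median -1.05), and 2 rose and 3 fell in polysomes (median -0.40). Of 19 tested TET cofactor and base excision repair genes, 7 rose and 7 fell in the transcriptome and 6 rose and 6 fell in polysomes. IDH2, the mitochondrial enzyme that makes the TET cosubstrate 2-oxoglutarate, rose from 0.388 to 29.3 CPM in the transcriptome (6.22 ± 0.59, adjusted p = 7.84e-09) and from 4.57 to 244 CPM in polysomes (5.74 ± 0.66, adjusted p = 3.49e-07). Against the transcriptome, 8 to 11 of these 19 genes were higher in polysomes at each stage and 3 to 6 lower, with medians from 0.51 to 2.13, beside the same 26.1% and 23.8%. The lists were not compared with each other by a test.

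Of 16 tested genes of the methyl donor cycle, 4 rose and 6 fell in the transcriptome (median -0.51), and 2 rose and 7 fell in polysomes (median -0.66). GNMT, which uses up the methyl donor S-adenosylmethionine, rose from 2.18 to 100.3 CPM in the transcriptome (5.52 ± 0.46, adjusted p = 1.03e-09) and from 11.7 to 534 CPM in polysomes (5.51 ± 0.55, adjusted p = 4.22e-08). The list medians of the 9 genes and of their partners were not compared by a test.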

How the data were processed

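Ribosome fractions and whole-cell transcriptomes of pooled bovine oocytes and embryos were sequenced from amplified cDNA. The authors quantified reads with Salmon and deposited the values as estimated counts per gene and library, without normalization. The submitters' processing notes list the genome build UMD3.1, whereas the study's methods name a later bovine assembly, and no coordinates are printed here. Of the deposited values, 11.7% were not whole numbers, and all were rounded before the tests. No column was left unused (0 columns). The 9 genes and the partner and marker lists were chosen with earlier results of these data known.

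Counts of F8 to F10 of a gradient were summed to a polysome pool and those of F3 to F5 to a light pool. Genes with low counts were removed with filterByExpr of edgeR 4.0.16 (R 4.3.3). Libraries were scaled with TMM, and 30 libraries in 12 groups (18 transcriptomes and 12 polysome pools) entered 1 quasi-likelihood fit over 14612 genes, so that all groups shared the estimate of the spread. Contrasts were taken between stages, between polysomes and transcriptome within a stage, and between the polysome and the transcriptome change of a transition (the interaction). A second fit over 24 pools and 14873 genes compared heavy with light fractions. P-values were adjusted with the Benjamini-Hochberg method over all genes of a contrast. The authors' own test was the edgeR likelihood ratio test, used here as an alternative. CPM were taken with the TMM factors of each fit, and the CPM of single fractions with factors over all libraries, so levels of pools and of single fractions are on slightly different scales. DESeq2 1.42.0 served as an alternative. Summaries were computed in Python 3.11.15 (scipy 1.17.1, pandas 2.3.3, numpy 2.4.6).

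All 9 genes were named in every comparison, partner genes only among those called at the 2-cell to 8-cell transition with the largest changes of their list (up to 4 in the transcriptome and 2 in polysomes), and like genes as the 3 with the highest Pearson r to a member. The values of 1 partner gene are not reported here. Both fits were tested on simulated data with known changes. Replicates were compared in 78 pairs, of which 0 were identical, with a chi-square per degree of freedom of at least 13.0. The median total was 10334106 counts in fractions and 10399576 in transcriptomes, and floors cover counting error only. For samples of the same letter, deviations from the group means correlated by -0.06 to 0.01 between polysome pools and transcriptomes. Heavy and light pools of a letter, which are parts of 1 gradient, correlated by only -0.09 to 0.17. Low correlations therefore cannot show that letters are unpaired. Polysome pools and transcriptomes were not treated as pairs, because the study does not state which belong together.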

Additional observations from a re-analysis of the deposited data

Results flagged for a closer look

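In 12 cases the polysome level and the transcriptome level of a gene responded differently to the same transition, by the interaction test of the edgeR quasi-likelihood fit. Values are the polysome change minus the transcriptome change on the log2 scale, beside 9.87% of all such tests called over all genes. No explanation was weighed.

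Among DNMT1, UHRF1 and UHRF2, DNMT1 differed by -2.24 at GV to MII and by 2.36 at 2-cell to 8-cell. UHRF1 differed by 2.18 at MII to 2-cell and by -5.86 at morula to blastocyst. UHRF2 differed by -1.90 at GV to MII, 2.60 at 2-cell to 8-cell, -2.40 at 8-cell to morula and 2.72 at morula to blastocyst. Neighbouring transitions share a stage that enters with opposite sign, so the alternating signs are not separate observations. The last 2 share the morula pools, which held 30 and 221 counts of UHRF2. Among the other genes, DNMT3B differed by -3.81 at 8-cell to morula and TET3 by -4.90 at morula to blastocyst. TDG differed by -5.80 at 2-cell to 8-cell and by 7.41 at 8-cell to morula. The TDG differences and those of UHRF2 around the 8-cell stage share the 8-cell libraries, and no difference of UHRF2 or TDG was called from 2-cell to morula without those libraries (0.29 ± 0.61 and 1.72 ± 1.04, adjusted p = 0.836 and 0.289). That span includes both steps around the 8-cell stage, where the differences had opposite signs. It therefore does not test either of them.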

How the results depend on the processing

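With every library kept, the 75 called results gave 637 values under other settings, of which 614 kept their direction and call, 23 lost the call and 0 reversed; with 1 library left out they gave 2250 values, of which 2157 kept both, 92 lost the call and 1 reversed (DNMT3B in morula polysomes against the transcriptome, -0.71 without polysome B and 2.45 without polysome A). With libraries left out in turn, the number of calls was 17 to 25 for transcriptome transitions (19 with all libraries), 10 to 17 for polysome transitions (12), 29 to 34 for polysomes against the transcriptome (32), 9 to 15 for the interaction (12) and 0 to 2 for heavy against light fractions (0). A fit of the 12 polysome pools alone called 5 polysome transitions, and the interaction called 7 of 36 without the 8-cell libraries, an alternative chosen after seeing the data. Heavy against light fractions gave 1 call with the likelihood ratio test, 8 with DESeq2, 1 with no filter on low counts and 1 with fractions weighted equally. With the gradient as replicate block, which pairs its heavy and light pools, it gave 3. The block on letters, which are not said to mark a shared collection, gave 19, 12, 30 and 11 calls in the other comparisons. The causes of these differences were not tested.

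Values of results that were not called and that changed sign are the lowest and highest with 1 library left out: TDG polysomes at 2-cell to 8-cell (-5.28 to 1.99), TET2 polysomes at 8-cell to morula (-3.90 to 6.07; 0.39 without morula pool A), TET3 polysomes at morula to blastocyst (-3.05 to 0.56), TET2 in morula polysomes against the transcriptome (-4.08 to 0.20), the interaction of TET1 at 2-cell to 8-cell (-0.16 to 5.15) and of TET2 at 8-cell to morula (-2.43 to 7.54; -0.07 without 8-cell pool B), and heavy against light fractions in the blastocyst for UHRF1 (-3.64 to 0.89) and UHRF2 (-2.33 to 10.8; 1.27 with the replicate block). UHRF2 polysomes at morula to blastocyst changed by -0.00042 when F7 was added to the pools. Without TMM factors the median of all genes shifted by up to 0.46 (MII to 2-cell transcriptomes), and with DESeq2 size factors by up to -0.24 (8-cell polysomes against the transcriptome). With 2 pools a group, low counts set the limit. TET1 before the 8-cell stage and TDG polysomes up to the 8-cell stage rest on a few reads. The same holds for TDG in GV and 2-cell transcriptomes and for TET3 in GV, morula and blastocyst transcriptomes.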

Other observations

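Over the 12 means of 6 stages and 2 measures, the log2(CPM + 1) levels of the 9 genes were set against each other and against all genes in the model, as descriptions only. Among pairs of the 9, DNMT1 and UHRF2 had the highest Pearson's r (0.96), followed by DNMT3B and TET3 (0.80), and UHRF1 and TET1 the lowest (-0.82). The transcripts nearest to DNMT1 were MMAA, DROSHA, a nuclease of microRNA processing, and PRC1, a cytokinesis protein (0.983, 0.982 and 0.978). Nearest to UHRF1 were CSNK1E, ILDR1 and the Wnt effector LEF1 (0.971, 0.969 and 0.962), and nearest to TET1 were SPTSSA, DPPA4, a gene of pluripotent cells, and TYW3 (0.993, 0.991 and 0.991). TET3 was nearest to CDK5R2, GIT1 and the cell cycle factor E2F1 (0.975, 0.974 and 0.973), DNMT3B to DUSP7, LRRC8E and OVOL1 (0.943, 0.930 and 0.911), and TET2 to FRMD4B, HMCN1 and DDAH1 (0.962, 0.947 and 0.936). All genes share the libraries behind these means.

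The 13 cumulus and granulosa markers summed to between 383 and 768 CPM in GV, MII and 2-cell transcriptomes, to 506, 213 and 265 CPM in the 8-cell transcriptomes and to between 41.8 and 60.1 CPM in those of morula and blastocyst. The GV, MII and 2-cell polysome pools held 552 to 1168 CPM. STAR alone had means of 592, 147 and 296 CPM in the GV, MII and 2-cell transcriptomes. In the pools of these stages its means were 1036, 613 and 939 CPM. In the same order, transcriptome means were 0.093, 0.149 and 0.030 CPM for FSHR and 3.96, 3.45 and 2.39 CPM for CYP19A1. For CYP11A1 they were 0.037, 13.2 and 0.089 CPM. In the 8-cell transcriptomes CYP11A1 had a mean of 97.3 CPM, with a range of 54.6 to 163 CPM, and in the 8-cell pools 40.3 CPM. The 8-cell transcriptome means of STAR, FSHR and CYP19A1 were 51.8, 4.47 and 1.24 CPM. FOXL2 was at 0 in every GV, MII and 2-cell transcriptome, and the other 12 markers were each detected in some of them.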
